A study of Mus musculus with 4 samples.

Results

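The Myc and Max network was examined in follicular B cells sorted from mouse spleen, as 10 genes taken by their symbols (Myc, Mycn, Max, Mxd1, Mxd3, Mxd4, Mxi1, Mnt, Mlx and Mga) out of 23305 genes with a value in every library. All 10 symbols were found once in each library. RNA-seq had been made from 4 libraries, 2 from WT mice and 2 from Ets1-/- mice, and the comparison asks which genes need the transcription factor Ets1 for their normal level in B cells that have not been activated. WT mice were C57BL/6 females, and Ets1-/- mice were females of a C57BL/6 x 129Sv background, so strain and genotype cannot be told apart. The age of these mice is not given in the sources used here, nor whether a library came from 1 mouse. No treatment is given for the cells of either genotype, which had been sorted as B220+ CD23-high CD21-low, without surface CD80, IgA, IgE or IgG, which keeps resting B cells that have not switched class. The Ets1 mutation is carried in the germline, so these B cells also developed in an Ets1-deficient mouse. Each value is an FPKM, a number of sequenced fragments scaled for the length of the transcript and the size of the library, so levels may be compared between genes. P-values rest on the spread between the 2 biological replicates of each genotype, which the fit draws for each gene toward that of genes of similar level.

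Myc is a transcription factor of the basic helix-loop-helix leucine zipper class that binds the E-box letters CACGTG only as a pair with Max. Myc-Max pairs activate genes of growth, ribosome assembly and metabolism. Max also pairs with Mxd1, Mxd3, Mxd4 and Mxi1 (together called the Mad or Mxd family) and with Mnt, which bring the Sin3 corepressor to the same letters, so these proteins oppose Myc. Mlx is a related partner that pairs with some of the same repressors and with the nutrient sensor MondoA, the product of Mlxip. Mga is a very large Max partner that works in a Polycomb complex. Resting B cells are commonly described as keeping Myc low, with Mxd proteins accompanying quiescence, while antigen receptor or Toll-like receptor signals induce Myc quickly. The Myc transcript was not low in the libraries used here, as given below.

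By the GENCODE M1 annotation of mm9, the build of the files, all 10 are protein-coding genes. Myc lies on chromosome 15 from 61816946 to 61821929 (plus strand) and Mycn on chromosome 12 from 12942902 to 12948720 (minus strand). Max lies on chromosome 12 from 78038256 to 78063235 (minus strand) and Mlx on chromosome 11 from 100948591 to 100953521 (plus strand). Among the repressors, Mxd1 lies on chromosome 6 from 86597038 to 86619153 (minus strand), Mxd3 on chromosome 13 from 55426529 to 55431119 (minus strand) and Mxd4 on chromosome 5 from 34516536 to 34530369 (minus strand). Mxi1 lies on chromosome 19 from 53384996 to 53450300 (plus strand), Mnt on chromosome 11 from 74644422 to 74659227 (plus strand) and Mga on chromosome 2 from 119722964 to 119795317 (plus strand). Exons of 3 members share bases with a gene on the opposite strand, namely 19.3% of the Mlx exon bases with Psmc3ip, 5.0% of those of Mxd3 with Prelid1 and 3.45% of those of Mxi1 with Gm10197. The library kit does not mark strand, so reads from these shared stretches cannot be told apart.

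Promoters are shown because the network's own proteins bind the E-box and Ets1 binds letters around GGAA. RefSeq promoter windows of 300 bases, from 250 before to 50 after the start of a transcript (table build GRCm38.p6), were held for 9 of the 10 genes in 11 windows, and each window matched mm9 letter for letter at 1 place. Myc has no entry. The E-box CACGTG, which reads the same on both strands, was in the window of 4 of the 9 genes, Max, Mlx, Mnt and Mxd4, and in that of 8.09% of all 27025 genes with windows of the same length. For the Ets1-type letters, CGGAAG on either strand was in a window of 1 of the 9 genes, Mxi1, against 18.8% of all genes, and AGGAAG on either strand was in those of 2, Mnt and Mlx, against 38.4% of all genes. No match overlapped another. The 4 E-box stretches and the CGGAAG stretch, with mm9 positions, 5′ to 3′ on the strand of the gene and the matched letters in capitals, were as follows.
Max, chr12:78063206-78063265, minus strand: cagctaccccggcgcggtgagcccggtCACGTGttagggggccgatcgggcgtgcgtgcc
Mlx, chr11:100948537-100948596, plus strand: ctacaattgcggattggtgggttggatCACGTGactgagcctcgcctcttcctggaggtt
Mnt, chr11:74644276-74644335, plus strand: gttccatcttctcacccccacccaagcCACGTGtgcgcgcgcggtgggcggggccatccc
Mxd4, chr5:34530546-34530605, minus strand: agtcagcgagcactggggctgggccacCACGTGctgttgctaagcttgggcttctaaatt
Mxi1, chr19:53403862-53403921, plus strand: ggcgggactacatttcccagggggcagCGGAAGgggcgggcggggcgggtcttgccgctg

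The first E-box letter lay 3 bases before the start of the Max transcript, 40 before that of Mlx, 123 before that of Mnt and 219 before that of Mxd4. These matches are letters in a window, and binding was not measured in the files used here.

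The libraries carried the markers of follicular B cells (Ms4a1, Cd79a and others), whose summed level over the 8 matched genes of a list of 9 ran from 5306 to 6595 FPKM. The files give no read number for each library, and the steps between low values put the depth relative to WT replicate 1 at 1.75 in WT replicate 2. In the Ets1-/- libraries it was 1.67 (replicate 1) and 0.876 (replicate 2). Ets1 itself had an FPKM of 231 and 275 in WT and of 229 and 229.8 in Ets1-/- libraries. Since the mutation targets only part of the gene and leaves it transcribed, this whole-gene value does not check the labels. Markers of other cells differed between libraries. The summed level of 8 neutrophil markers was 110.5 and 92.3 FPKM in WT and 2555 and 699 FPKM in Ets1-/- replicates 1 and 2, with all 8 higher in both Ets1-/- libraries and none at 0. Of these Ngp, Ltf and Camp were called higher by limma. Mpo and Elane passed the filter only through the Ets1-/- group, so their difference is partly fixed by it. Over all tested genes 19.4% had both Ets1-/- values above both WT values and 22.2% had both below. For 5 erythroid markers the sum was 4.27 to 6.70 FPKM in WT and 28.1 to 64.4 FPKM in Ets1-/-. For 8 macrophage markers the sum was 250.9 to 257 FPKM in WT and 113 to 183 FPKM in Ets1-/-, but Apoe made up most of the WT sum. Without Apoe, called lower, the other 7 summed to 31.5 to 64.3 FPKM in WT and 95 to 149 FPKM in Ets1-/-, with Adgre1 called higher. Only Adgre1 and Lyz2 of these had both Ets1-/- values above both WT values. The values of Csf1r, Cd68, C1qa, C1qb and C1qc overlapped between genotypes. For 6 plasma cell markers the sum was 168 to 189 FPKM in WT and 138 to 152 FPKM in Ets1-/-. Prdm1 and Sdc1 were nevertheless higher in both Ets1-/- libraries, each at an unadjusted p under 0.05 and neither called by limma. Xbp1, Irf4 and Tnfrsf17, the last not tested, went the other way, with both Ets1-/- values below both WT values. Jchain overlapped between genotypes. Prdm1 passed the filter only through the Ets1-/- group, so its difference is partly fixed by the filter. For 6 NK cell markers it was 30.3 to 44.0 and 20.2 to 29.2 FPKM. The sums overlapped between genotypes for 9 T cell markers (123 to 147 and 106 to 133) and 7 proliferation markers (26.4 to 48.9 and 37.6 to 38.7). Of the T cell markers Thy1 was called lower, at 17.4 and 16.2 FPKM in WT and 3.38 and 3.39 FPKM in Ets1-/- libraries (log2 fold change -2.02, limma with Benjamini-Hochberg adjusted p = 0.00658). The part of these other cells in the differences described here was not tested.

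Max and Myc were the most abundant members in both genotypes, and Mycn was close to absent. In WT cells the order of the mean levels was Myc at 96.5 ± 33.9 FPKM (SD, n = 2), Max at 65.4 ± 0.934, Mxd4 at 34 ± 0.561, Mlx at 30.6 ± 0.883, Mnt at 18.3 ± 1.11, Mga at 11.8 ± 0.378, Mxd3 at 5.03 ± 0.564, Mxd1 at 4.34 ± 0.137, Mxi1 at 3.0 ± 0.130 and Mycn at 0.0252 ± 0.0198 FPKM. No neighbours in this WT order overlapped between their 2 replicates, although Myc in WT replicate 1, at 72.5 FPKM, was near the higher Max value, 66.1 FPKM. In Ets1-/- cells the order was the same except that Mxd1 and Mxd3 changed places, and their replicates overlapped. Max stood above 87.1% to 88.3% of the 10949 tested genes in each library and Myc above 89.4% to 95.9%. Mxd4 was the most abundant of the Mxd family, above 75.6% to 80.1% of tested genes, while Mxi1 stood above 16.3% to 24.1%.

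**Figure D1:**
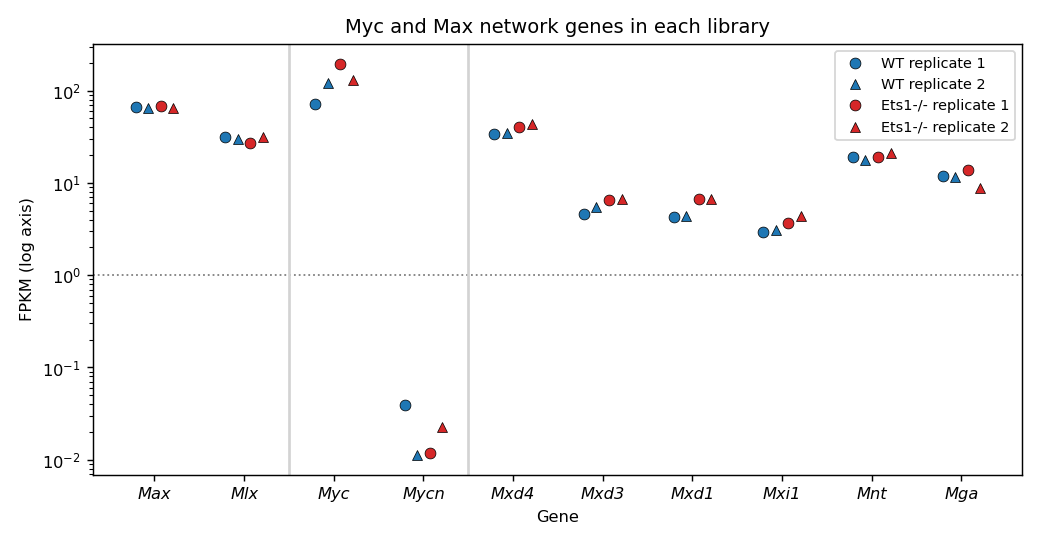
FPKM of the 10 network genes in each of the 4 libraries, on a log axis, with circles for replicate 1 and triangles for replicate 2, blue for WT and red for Ets1-/-. The dotted line marks an FPKM of 1, and Mycn is the 1 gene under it.

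Genotypes were compared with limma on log2(FPKM + 1) over the 10949 genes whose mean reached an FPKM of 1 in WT or in Ets1-/- cells. A call needed a log2 fold change of 1 or more in size together with a Benjamini-Hochberg adjusted p no higher than 0.05. Of the 10 members 9 were tested, all with a WT mean above 1, and Mycn was not. None of the 9 was called by limma, 0 in either direction, where 1.70% of all tested genes were (0.877% higher and 0.822% lower in Ets1-/-). The log2 fold changes of the 9 ran from -0.09 to 0.77, under the minimum of 1 in size, so none could be called at any p. At an unadjusted p under 0.05 there was 1 member, Mxd1, where 13.3% of all tested genes reached it. Both Ets1-/- values lay above both WT values for 6 of the 9, namely Myc, Mxd1, Mxd3, Mxd4, Mxi1 and Mnt, where 19.4% of all tested genes had this order. The median log2 fold change of the 9 was 0.29, and that of all tested genes was -0.02. In bulk RNA, a different share of cells with a transcript and a different amount per cell cannot be told apart.

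**Figure D2:**
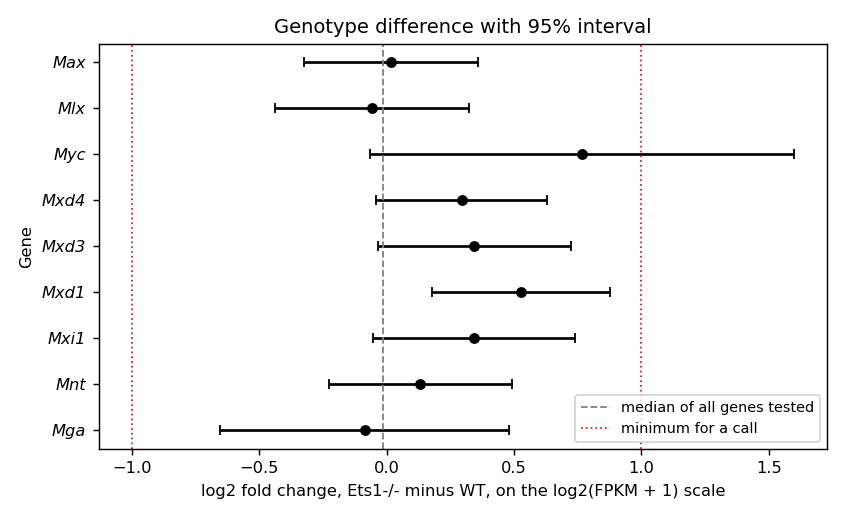
Log2 fold change of the 9 tested network genes, Ets1-/- minus WT on the log2(FPKM + 1) scale, as points with 95% intervals of the limma fit for single genes. The Mxd1 interval, 0.18 to 0.88, lies above 0, and the interval of Myc, -0.06 to 1.6, is the widest and reaches past the minimum of 1 for a call.

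Myc, the activator of the network, had an FPKM of 72.5 and 120.5 in WT replicates 1 and 2 and of 197 and 129.9 in Ets1-/- replicates 1 and 2. Both Ets1-/- libraries were above both WT libraries, but WT replicate 2 came close to Ets1-/- replicate 2. The means were 96.5 ± 33.9 FPKM in WT and 163 ± 47.4 FPKM in Ets1-/- (SD, n = 2), a ratio of 1.69, while the higher WT replicate was 1.66 times the lower and the higher Ets1-/- replicate 1.52 times the lower. The log2 fold change of Myc was 0.77 (standard error 0.33, 95% interval -0.06 to 1.6, limma with Benjamini-Hochberg adjusted p = 0.416), so the difference did not pass this test. The value rested on which library was used. The log2 fold change was 0.41 without WT replicate 1, 1.13 without WT replicate 2, 0.47 without Ets1-/- replicate 1 and 1.07 without Ets1-/- replicate 2. Within each genotype the higher Myc value was in the deeper library, and the part of depth in the difference was not tested.

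Egr1, an immediate early gene of B cell receptor signaling, is in none of the gene lists and was named later. It had the same order of libraries as Myc, at 132 and 250.2 FPKM in WT and 636 and 462 FPKM in Ets1-/- replicates 1 and 2. The 3 tested genes whose log2 values, centred on each gene's mean, came closest to those of Myc over the 4 libraries were Hist1h2bh, Gca and Ctla4, at Euclidean distances of 0.0565, 0.0968 and 0.161. Hist1h2bh, a histone gene, was at 0.530 and 1.66 FPKM in WT and 3.18 and 1.82 FPKM in Ets1-/- libraries. All 3 genes were low, with WT means of 1.10 (Hist1h2bh), 1.23 (Gca) and 1.90 FPKM (Ctla4), where the log2(FPKM + 1) scale understates changes. In FPKM the WT replicates of Hist1h2bh differed by 3.14-fold and those of Myc by 1.66-fold. With 4 libraries such closeness is a description only. Mycn, the paralog of Myc best known from the nervous system, was at 0.0392 and 0.0112 FPKM in WT and 0.0118 and 0.0224 FPKM in Ets1-/- libraries, values that rest on very few fragments, and no fold is given. Pvt1, the long noncoding RNA gene next to Myc, on chromosome 15 from 61869542 to 62209651 of mm9, was at 3.14 and 2.96 FPKM in WT and 5.50 and 3.73 FPKM in Ets1-/- libraries. For Pvt1 the log2 fold change was 0.45 (standard error 0.20, limma with Benjamini-Hochberg adjusted p = 0.438), and like Myc it was highest in Ets1-/- replicate 1.

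All 4 genes of the Mxd family were higher in both Ets1-/- libraries than in both WT libraries, with none called. They are among the 6 members counted above, and 19.4% of all tested genes had this order. Mxd1, which encodes the Mad1 repressor, was at 4.24 and 4.44 FPKM in WT and at 6.64 and 6.74 FPKM in Ets1-/- libraries. Its replicates differed by 1.05-fold in WT and 1.02-fold in Ets1-/-, and the means by 1.54-fold. The log2 fold change of 0.53 (standard error 0.14, 95% interval 0.18 to 0.88) had an unadjusted p of 0.0115 and did not pass after correction (limma, Benjamini-Hochberg adjusted p = 0.172). The interval ends below 1, the minimum for a call. Neutrophils also express Mxd1, and the summed neutrophil markers, higher in Ets1-/- libraries as given above, were at 2555 and 699 FPKM in replicates 1 and 2. Their part in the Mxd1 difference was not tested.

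Mxd4, the most abundant family member here, was at 33.6 and 34.4 FPKM in WT and at 40.8 and 43.1 FPKM in Ets1-/- libraries. The ratio of means was 1.23 and the log2 fold change 0.29 (standard error 0.13, 95% interval -0.04 to 0.63, limma with Benjamini-Hochberg adjusted p = 0.444). Mxd3, the family member linked to dividing cells, was at 4.63 and 5.43 FPKM in WT and at 6.53 and 6.75 FPKM in Ets1-/- libraries, a ratio of means of 1.32. For Mxd3 the log2 fold change was 0.34 (standard error 0.15, limma with Benjamini-Hochberg adjusted p = 0.424). The proliferation markers did not separate the genotypes, with 0 of 7 free of overlap in either direction.

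Mxi1, whose product is also called Mad2, was at 2.91 and 3.09 FPKM in WT and at 3.72 and 4.43 FPKM in Ets1-/- libraries. The ratio of means was 1.36 and the log2 fold change 0.34 (standard error 0.16, limma with Benjamini-Hochberg adjusted p = 0.458). Mnt, the repressor present in most cell types, was at 19.1 and 17.5 FPKM in WT and at 19.1 and 21.2 FPKM in Ets1-/- libraries, so that WT replicate 1 and Ets1-/- replicate 1 were almost equal. For Mnt the log2 fold change was 0.13 (standard error 0.14, 95% interval -0.22 to 0.49, limma with Benjamini-Hochberg adjusted p = 0.823). With any 1 library left out, the log2 fold change ran from 0.50 to 0.55 for Mxd1 and 0.26 to 0.33 for Mxd4. It ran from 0.25 to 0.44 for Mxd3, 0.24 to 0.44 for Mxi1 and 0.06 to 0.20 for Mnt. The sign could not turn for these genes, since both Ets1-/- values lay above both WT values.

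The smallest differences among the 9 were those of the partners Max, Mlx and Mga. Max was at 66.1 and 64.7 FPKM in WT and at 67.7 and 64.8 FPKM in Ets1-/- libraries, and its genotypes overlapped. The log2 fold change of Max was 0.018 (standard error 0.13, 95% interval -0.32 to 0.36, limma with Benjamini-Hochberg adjusted p = 0.989). Mlx was at 31.2 and 29.9 FPKM in WT and at 27 and 31.9 FPKM in Ets1-/- libraries. For Mlx the log2 fold change was -0.058 (standard error 0.15, 95% interval -0.44 to 0.32, limma with Benjamini-Hochberg adjusted p = 0.948). Mga was at 12.0 and 11.5 FPKM in WT and at 13.7 and 8.87 FPKM in Ets1-/- libraries, so the Ets1-/- replicates lay on either side of both WT values and differed by 1.54-fold. The log2 fold change of Mga was -0.086 (standard error 0.22, 95% interval -0.65 to 0.48, limma with Benjamini-Hochberg adjusted p = 0.948). The sign for Max, Mlx and Mga turned with 1 library left out, and that of Max also after quantile normalization, and these genes are therefore given without a direction.

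The balance of activator to repressor transcripts varied more between replicates than the repressors did. The summed level of Mxd1, Mxd3, Mxd4, Mxi1 and Mnt was 64.5 and 64.9 FPKM in WT and 76.8 and 82.2 FPKM in Ets1-/- libraries, so the repressor sum was higher in both Ets1-/- libraries. Relative to Max it was 0.976 and 1.00 in WT and 1.14 and 1.27 in Ets1-/- libraries. The ratio of Myc to Max was 1.10 and 1.86 in WT and 2.91 and 2.0 in Ets1-/- libraries. The ratio of Myc to the 5 repressors was 1.12 and 1.86 in WT and 2.56 and 1.58 in Ets1-/- libraries, where the genotypes overlapped. These sums and ratios are descriptions of transcripts and were not tested.

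**Figure D3:**
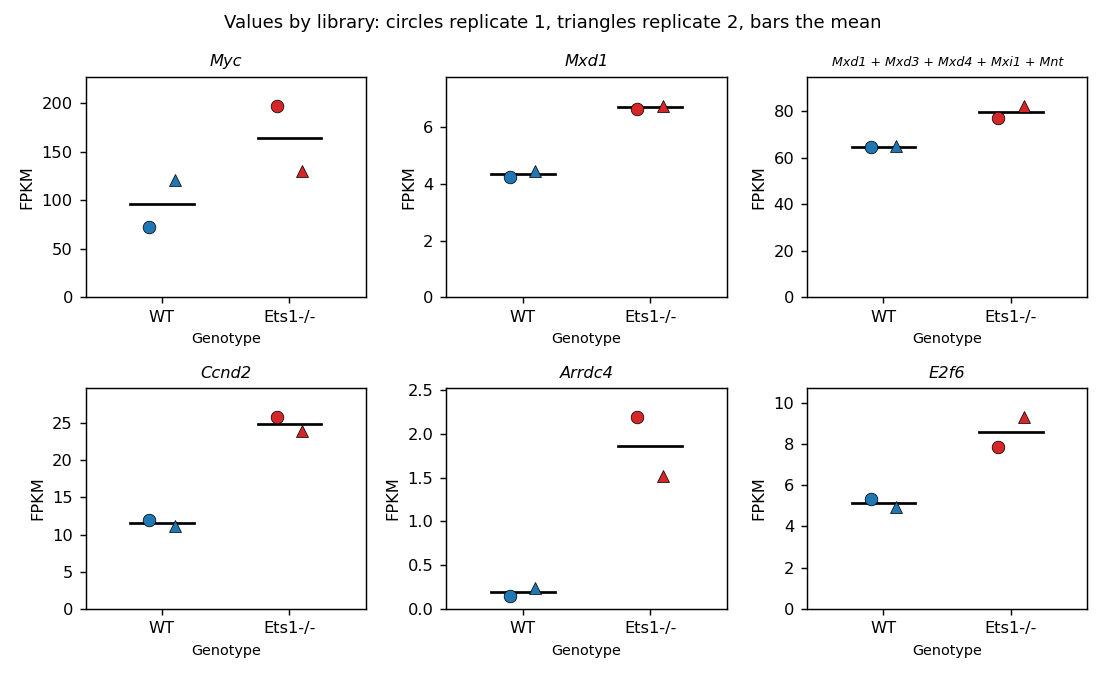
FPKM in each library of Myc, Mxd1, the sum of 5 repressor genes, Ccnd2, Arrdc4 and E2f6, with circles for replicate 1, triangles for replicate 2 and bars for the mean of each genotype. Replicates lie close together for Mxd1 and Ccnd2, while for Myc WT replicate 2 (120.5) and Ets1-/- replicate 2 (129.9) nearly meet.

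The proteins through which the network acts were measured as lists of cofactor genes. Of 12 coactivator genes, which include Trrap and the acetyltransferase gene Kat5, 12 were tested and 0 were called by limma, with 1 at an unadjusted p under 0.05 and a median log2 fold change of -0.04. That gene was Ccnt1, the cyclin of the elongation kinase Cdk9, at 18.8 and 19.1 FPKM in WT and 15.2 and 13.4 FPKM in Ets1-/- libraries (log2 fold change -0.38, standard error 0.14, limma with Benjamini-Hochberg adjusted p = 0.333). The next largest differences were of Trrap, at -0.16, and Ep400, at -0.14 (limma with Benjamini-Hochberg adjusted p = 0.770 and 0.813). Of 16 genes of the Sin3 and NCoR corepressors, which the Mxd proteins recruit, 16 were tested and 0 were called, with 0 at an unadjusted p under 0.05 and a median of -0.10. For 7 of the 16 both Ets1-/- values lay below both WT values, where 22.2% of all tested genes had this order, and for 0 above. Among them Hdac1, a histone deacetylase, was at 106 and 104.7 FPKM in WT and 76.9 and 94.2 FPKM in Ets1-/- libraries (log2 fold change -0.30, limma with Benjamini-Hochberg adjusted p = 0.563). Arid4a, a subunit of the Sin3 complex, had the largest difference of the list, with 18.4 and 18.1 FPKM in WT and 17.7 and 11.1 FPKM in Ets1-/- libraries (log2 fold change -0.36, limma with Benjamini-Hochberg adjusted p = 0.654). Only Ets1-/- replicate 2 stood clearly below WT for Arid4a.

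Of the remaining partners, Mlxip, the gene of MondoA, was at 33.5 and 32.9 FPKM in WT and 42.6 and 33.0 FPKM in Ets1-/- libraries (log2 fold change 0.17, standard error 0.17, limma with Benjamini-Hochberg adjusted p = 0.808), a level close to that of its partner Mlx. Mlxipl, its liver counterpart, reached at most 0.0136 FPKM, and Mycl, listed under its older symbol Mycl1, at most 0.256 FPKM, so neither was tested. Among 13 genes that control Myc turnover or lie beside it, such as the ubiquitin ligase gene Fbxw7, 0 were called by limma and 0 had an unadjusted p under 0.05, with a median log2 fold change of 0.07. After Pvt1, the largest differences were of Usp36 at 0.22 and Axin1 at 0.18 (limma with Benjamini-Hochberg adjusted p = 0.668 and 0.760).

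Mga works with E2f6, L3mbtl2, Pcgf6 and others in the Polycomb complex PRC1.6, which silences germline genes in body cells. Of 10 other genes of that complex 10 were tested and 0 were called by limma, with 1 at an unadjusted p under 0.05 and a median log2 fold change of -0.03. E2f6, its DNA-binding repressor, on chromosome 12 from 16817771 to 16833549 of mm9, was at 5.34 and 4.96 FPKM in WT and 7.88 and 9.30 FPKM in Ets1-/- libraries, a ratio of means of 1.67. Its log2 fold change of 0.64 (standard error 0.15, 95% interval 0.25 to 1.03) had an unadjusted p of 0.00820 (limma, Benjamini-Hochberg adjusted p = 0.145). Its partner gene Tfdp1 was at 16 and 19.2 FPKM in WT and 22.9 and 22 FPKM in Ets1-/- libraries (log2 fold change 0.34, limma with Benjamini-Hochberg adjusted p = 0.440). The ubiquitin ligase gene Rnf2 was lower, at 23.8 and 26.1 FPKM against 21.2 and 16.1 FPKM (log2 fold change -0.41, limma with Benjamini-Hochberg adjusted p = 0.428).

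Of 13 germline genes known to be under this complex, 3 (Mael, Taf7l and Stk31) were listed at 0 in all libraries and 2 passed the filter, both only through the Ets1-/- group, so that their difference is partly fixed by the filter. Sycp1, a gene of the meiotic synaptonemal complex, on chromosome 3 from 102622422 to 102740023, was listed at 0 in both WT libraries and was at 2.12 and 0.812 FPKM in Ets1-/- libraries (a difference of 1.25 in log2(FPKM + 1), limma with Benjamini-Hochberg adjusted p = 0.141). Stag3, a meiotic cohesin gene, on chromosome 5 from 138721468 to 138753621, was at 0.618 and 0.126 FPKM in WT and 1.95 and 1.20 FPKM in Ets1-/- libraries (limma with Benjamini-Hochberg adjusted p = 0.209). The other germline genes did not exceed 0.368 FPKM in any library.

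Of the Myc target genes, those of the nucleolus and ribosome assembly showed no call, and 1 gene of growth control did. Among 22 nucleolar genes, including Npm1, Fbl and Nop56, 22 were tested, 0 were called by limma and 0 had an unadjusted p under 0.05. The median for this list was a log2 fold change of 0.07, with a range from -0.27 for Grwd1 to 0.32 for Noc4l. Noc4l was at 23.6 and 18.9 FPKM in WT and 21.9 and 32.3 FPKM in Ets1-/- libraries. Ncl, the nucleolin gene and a classical Myc target, was at 66.2 and 68.7 FPKM in WT and 77.9 and 41.1 FPKM in Ets1-/- libraries, with a log2 fold change of -0.25 (95% interval -1.05 to 0.55, limma with Benjamini-Hochberg adjusted p = 0.862) while its Ets1-/- values lay on either side of both WT values.

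Of 37 Myc target genes of metabolism and growth, 37 were tested, 1 was called higher and 0 lower, 4 had an unadjusted p under 0.05, all higher, and the median log2 fold change was 0.08. Over all tested genes 1.70% were called and 13.3% had an unadjusted p under 0.05, so the count of 4 was not above the background. Ccnd2, the gene of cyclin D2, which drives the entry of B cells into the cell cycle, lies on chromosome 6 from 127075797 to 127101066 of mm9. It rose from 11.9 and 11.1 FPKM in WT to 25.8 and 24.0 FPKM in Ets1-/- libraries. The means were 11.5 ± 0.541 and 24.9 ± 1.30 FPKM (SD, n = 2), a ratio of 2.16, and the log2 fold change was 1.05 (standard error 0.13, 95% interval 0.70 to 1.39, limma with Benjamini-Hochberg adjusted p = 0.0383). The call was lost with any library left out, which leaves 1 library in a genotype. The log2 fold change then ran from 0.998, just under the minimum of 1 for a call, to 1.10. The summed level of the proliferation markers overlapped between genotypes, at 26.4 and 48.9 FPKM in WT and 38.7 and 37.6 FPKM in Ets1-/- libraries.

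The other 3 genes at an unadjusted p under 0.05, named after their values were seen, were Apex1, E2f2 and Slc2a1, with log2 fold changes of 0.55, 0.53 and 0.36 (limma with Benjamini-Hochberg adjusted p = 0.288, 0.264 and 0.362). Odc1, the polyamine enzyme gene long known as a Myc target and also looked up after the fact, followed the order of Myc within each genotype, at 36.4 and 55.0 FPKM in WT and 73.5 and 50.6 FPKM in Ets1-/- libraries, and its genotypes overlapped. Of 8 genes that Myc represses, such as the cyclin-dependent kinase inhibitor gene Cdkn1b, 6 were tested, 0 were called by limma and 0 had an unadjusted p under 0.05, with a median of -0.10. Their largest differences were of Ndrg1 at 0.55, Gadd45a at -0.45 and Cdkn2c at -0.37 (limma with Benjamini-Hochberg adjusted p = 0.577, 0.447 and 0.569).

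**Figure D4:**
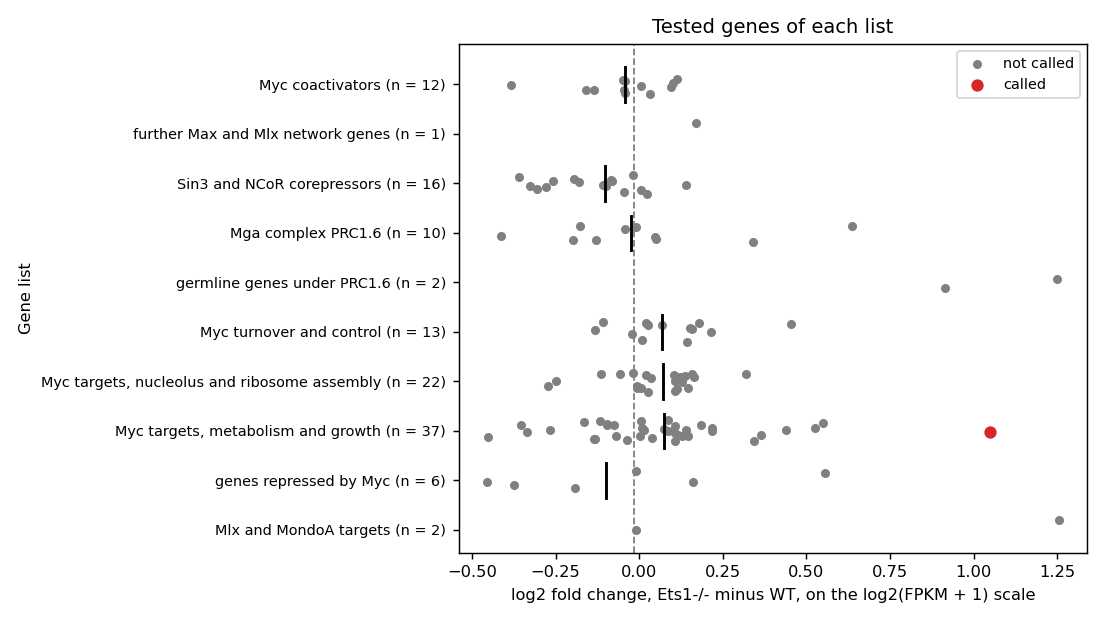
Log2 fold change of each tested gene, Ets1-/- minus WT on the log2(FPKM + 1) scale, by gene list, with the list's median as a black bar where at least 6 genes were tested and the median of all tested genes as a dashed line. Ccnd2, at 1.05, is the 1 called gene shown, and the medians of these lists lie between -0.10 and 0.08. Cell type markers are not shown.

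Of the 2 targets of Mlx and MondoA, genes that rise with glucose supply, 0 were called by limma and 1, Arrdc4, had an unadjusted p under 0.05. Txnip, the inhibitor of thioredoxin and of glucose uptake, was at 265 and 252 FPKM in WT and 209 and 315 FPKM in Ets1-/- libraries, with a log2 fold change of -0.01 (95% interval -0.62 to 0.60, limma with Benjamini-Hochberg adjusted p = 0.998). Arrdc4, an arrestin family gene, on chromosome 7 from 75881931 to 75894127 of mm9, was at 0.140 and 0.240 FPKM in WT and 2.19 and 1.52 FPKM in Ets1-/- libraries, a ratio of means of 9.79. The difference of Arrdc4 in log2(FPKM + 1) was 1.26 (standard error 0.19, 95% interval 0.76 to 1.75), and its adjusted p of 0.0561 (limma, Benjamini-Hochberg) missed the threshold. Arrdc4 passed the filter only through the Ets1-/- group, and its WT level was near 0.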

How the data were processed

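Sorted follicular B cells were sequenced in 2 WT and 2 Ets1-/- libraries. The authors aligned reads to mm9 with TopHat2 2.0.13 and estimated FPKM with Cuffdiff, whose version, annotation and scaling between libraries are not given in the sources used here, and deposited 1 FPKM value per gene symbol and library. Of 23309 entries, 4 with a repeated symbol were left out. The files do not give the reads behind each value, so precision is given as replicate SD, standard error and 95% intervals for single genes, unadjusted.

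Linear models on log2(FPKM + 1) came from limma 3.58.1 under R 4.3.3 (eBayes with a trend, no covariate), restricted to 10949 genes whose mean reached an FPKM of 1 in WT or in Ets1-/- cells, with Benjamini-Hochberg adjustment over all of them. This scale understates changes of low genes. The fit was checked on simulated data. Sequences and motifs were handled in Python 3.11.15. The members and gene lists were chosen with earlier results of these data known. The text names all members, every called list gene or otherwise the 3 list genes with the largest absolute log2 fold change, the 3 genes closest to Myc, and genes marked as named later. A gene that this rule names is not reported here. Of 194 list genes 1 (Ighd) matched no symbol. Alternatives changed pseudocount, filter, scaling, variance estimation, replicate block and libraries.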

Additional observations from a re-analysis of the deposited data

How the results depend on the processing

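No network member was called under any of the 14 alternatives run. The number of genes called by limma, 186 of all tested, was 75 with no filter on low values, 106 with a mean FPKM of at least 5, 305 with robust eBayes and 130 to 144 when single replicates were omitted. List genes other than cell type markers gave 1 call in the fit reported and 0 with no filter. With robust eBayes and without a trend in eBayes they gave 2 each (Ccnd2 and Arrdc4 in both). Mxi1 and Arrdc4, both low, were not tested at the minimum of 5. The log2 fold change of Max was -0.033 with quantile normalization, and with replicates left out in turn it ran from -0.013 to 0.048 for Max, from -0.17 to 0.059 for Mlx and from -0.37 to 0.20 for Mga. The cause was not tested.

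Replicate numbers are shared between genotypes, but nothing in the labels says that they mark a shared litter or day. Counts of list genes here again leave out cell type markers. With the replicate block 266 genes were called, and of the list genes Arrdc4 (limma, Benjamini-Hochberg adjusted p = 0.0380) in place of Ccnd2 (adjusted p = 0.0529). Same-numbered libraries deviated in opposite directions (correlation across genes -0.21), and with the crossed replicate block, added after seeing the data, 409 genes, 3 list genes and 0 members were called, and 1 member, Myc, had an adjusted p of 0.05 or less (limma, Benjamini-Hochberg) against 0 in the fit reported and each other alternative. In the fit reported Myc (log2 fold change 0.77) and Mxd1 (0.53) lay under the minimum of 1 for a call, whatever their adjusted p. The lack of a call with 2 libraries per genotype does not show these differences absent.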
